A study of Homo sapiens with 3 samples.

Results

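The 47 genes described here encode the proteins that sense damaged DNA, signal its presence and repair it. They were chosen by gene name from a list of known damage response and repair genes, not by their measured values. Earlier results of these data were known at that choice. All 47 were found among 50495 gene names. RNA was sequenced from AGS cells, a human gastric adenocarcinoma line, after 48 h with 12 µM SFA, with 18 µM SFE or with DMSO, the vehicle. SFA and SFE are compounds known here only by these code names, and they were not given at the same dose. Each group is 1 library made from total RNA after removal of ribosomal RNA. With no replicate of any library, each difference is one between 2 libraries, how much separate cultures vary is unknown, and groups were not tested against each other.

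Cells meet DNA damage with several machines. Breaks are sensed by the MRE11-RAD50-NBN complex and by the Ku heterodimer, which call in the large kinases ATM and DNA-PK. ATR, a further large kinase, is carried to single-stranded DNA by its partner ATRIP. These large kinases phosphorylate checkpoint kinases and adaptor proteins that halt the cell cycle and mark the damaged chromatin. Homologous recombination copies an intact sister strand, end joining ligates broken ends directly, and base excision, nucleotide excision and mismatch repair remove damaged or mispaired bases. Many recombination genes are transcribed mainly in S phase, and DDB2 and XPC are known targets of p53.

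The total count was 13639844 with SFA, 13644676 with SFE and 18767232 with DMSO, of which the 47 genes took 0.485%, 0.492% and 0.5003%. Counts of the 47 genes ran between 17 and 13661 with SFA, between 15 and 13612 with SFE and between 30 and 18506 with DMSO. Values below are deposited counts, deposited FPKM (a count scaled by gene length and by the library's total) and ratios between libraries of a gene's share of the total count. Each ratio has a 95% exact conditional interval (Clopper-Pearson). The intervals cover counting error only, and PCR copies were not told apart. Of the 47 genes, 34 overlap another listed gene, and whether strand was used in counting is not stated, so the values of those 34 are uncertain. Only some overlaps are named with their genes below. Among the others, TADA3 (over OGG1) had 4727, 3956 and 5304 counts with SFA, SFE and DMSO. POLG (over FANCI) had 2483, 2432 and 3122, and LSM3 (over XPC) 1017, 937 and 1259. LRRC41 (over RAD54L) had 1385, 1330 and 1734, and TUBGCP4 (over TP53BP1) 1325, 1339 and 1809.

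No member of the repair set moved far from DMSO with either compound. On the log2(FPKM + 1) scale, none of the 47 genes was 2-fold or even 1.5-fold higher or lower. Over the 11680 genes that reached 1 FPKM in any library, 1.36% were higher and 1.34% lower by 2-fold with SFA, and 1.37% higher and 1.01% lower with SFE. The shares past 1.5-fold were 5.36% higher and 4.67% lower with SFA, and 5.34% higher and 3.48% lower with SFE. This scale understates the change of low genes: with 0.1 added in place of 1, PRKDC, ATR and MRE11A passed 1.5-fold lower and XRCC4 higher with SFA, and MRE11A passed it lower and XRCC2 higher with SFE. With 0.1 added, 8.52% of the 11680 genes were lower and 9.59% higher past 1.5-fold with SFA, and 6.39% lower and 9.86% higher with SFE. The ratios of counts given for single genes below carry no added constant. The median difference of the 47 genes was −0.02 with SFA and −0.01 with SFE, against 0.01 and 0.03 over the 11680 genes. It was below 0 for 25 members with SFA and 24 with SFE, where 48.6% and 44.8% of the 11680 genes were below 0. Under median-ratio or trimmed mean scaling 25 members were below 0 with SFA and 29 with SFE, and the shares of all genes below 0 were 49.3% with SFA and 49.98% with SFE under median-ratio scaling and 49.9% and 50.2% under trimmed mean scaling. The 11680 genes all reached 1 FPKM, as did 41 of the 47 members. Those 41 had a median of −0.03 with SFA and −0.01 with SFE, and 23 and 21 of them were below 0. Among the 41, ERCC4 and ERCC5 reached 1 FPKM only with DMSO, where they stood highest, and RAD51C only with SFA. The filter thus bears on these counts. Over 9444 protein-coding genes that reached 1 FPKM, the median was 0.0005 with SFA and 0.02 with SFE. Of these 9444, 49.9% and 46.7% were below 0. The interquartile range of the 47 differences ran from −0.18 to 0.11 with SFA and from −0.17 to 0.07 with SFE. Over the 11680 genes it ran from −0.18 to 0.19 with SFA and from −0.14 to 0.21 with SFE. In such bulk RNA, fewer cells that carry a transcript and less of it per cell cannot be told apart.

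**Figure D1:**
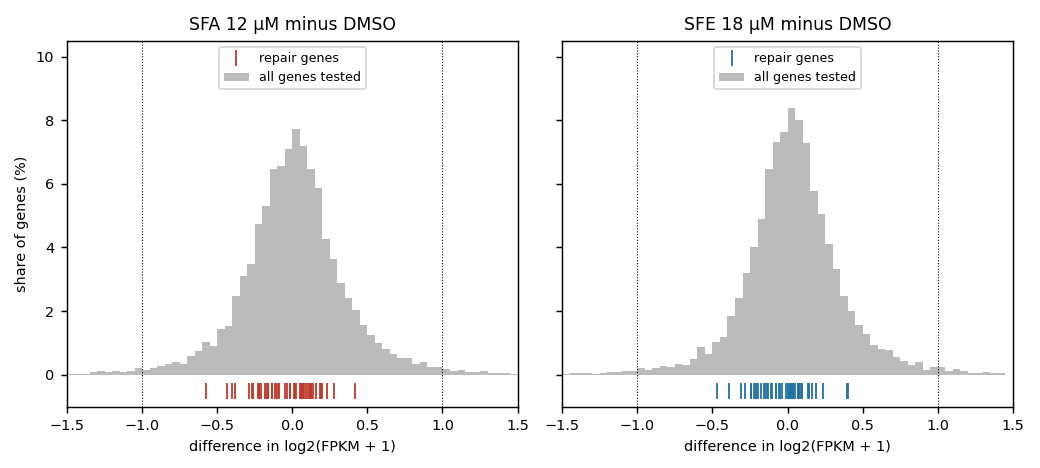
Differences in log2(FPKM + 1) between each compound and DMSO (x axis; left SFA, right SFE). Grey bars give the share of all 11680 genes tested in steps of 0.05, coloured ticks the 47 repair genes, and dotted lines a 2-fold difference. All 47 ticks lie inside the dotted lines, with the lowest at −0.57 (PRKDC with SFA) and the highest at 0.42 (ERCC2 with SFA).

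Smaller differences were present in both directions. A limit of 1.25-fold, chosen after the values were seen, left PRKDC, ATR, MRE11A and BLM lower and ERCC2 higher with SFA. With SFE it left MRE11A and PRKDC lower and ERCC2 and XRCC2 higher. Over the 11680 genes, 13.5% were lower and 14.8% higher past that limit with SFA, and 10.1% lower and 15.0% higher with SFE. By counting error alone, the interval lay wholly below a ratio of 1 for 17 of the 47 genes and wholly above it for 9 with SFA, where the shares over the 11680 genes were 26.8% and 27.6%. The same counts were 16 and 7 with SFE, where the shares over the 11680 genes were 22.8% and 28.9%. Under median-ratio or trimmed mean scaling the counts were 17 and 8 with SFA, and 18 and 7 with SFE. The shares under median-ratio scaling were 27.5% and 26.8% with SFA, and 26.9% and 24.7% with SFE. With trimmed mean scaling they were 27.9% and 26.4%, and 27.1% and 24.5%. Among 9444 protein-coding genes the deposited shares were 30.8% and 30.1% with SFA, and 26.4% and 31.3% with SFE. Both comparisons share the DMSO library, so a gene's values with SFA and with SFE are set side by side and are not separate evidence.

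**Figure D2:**
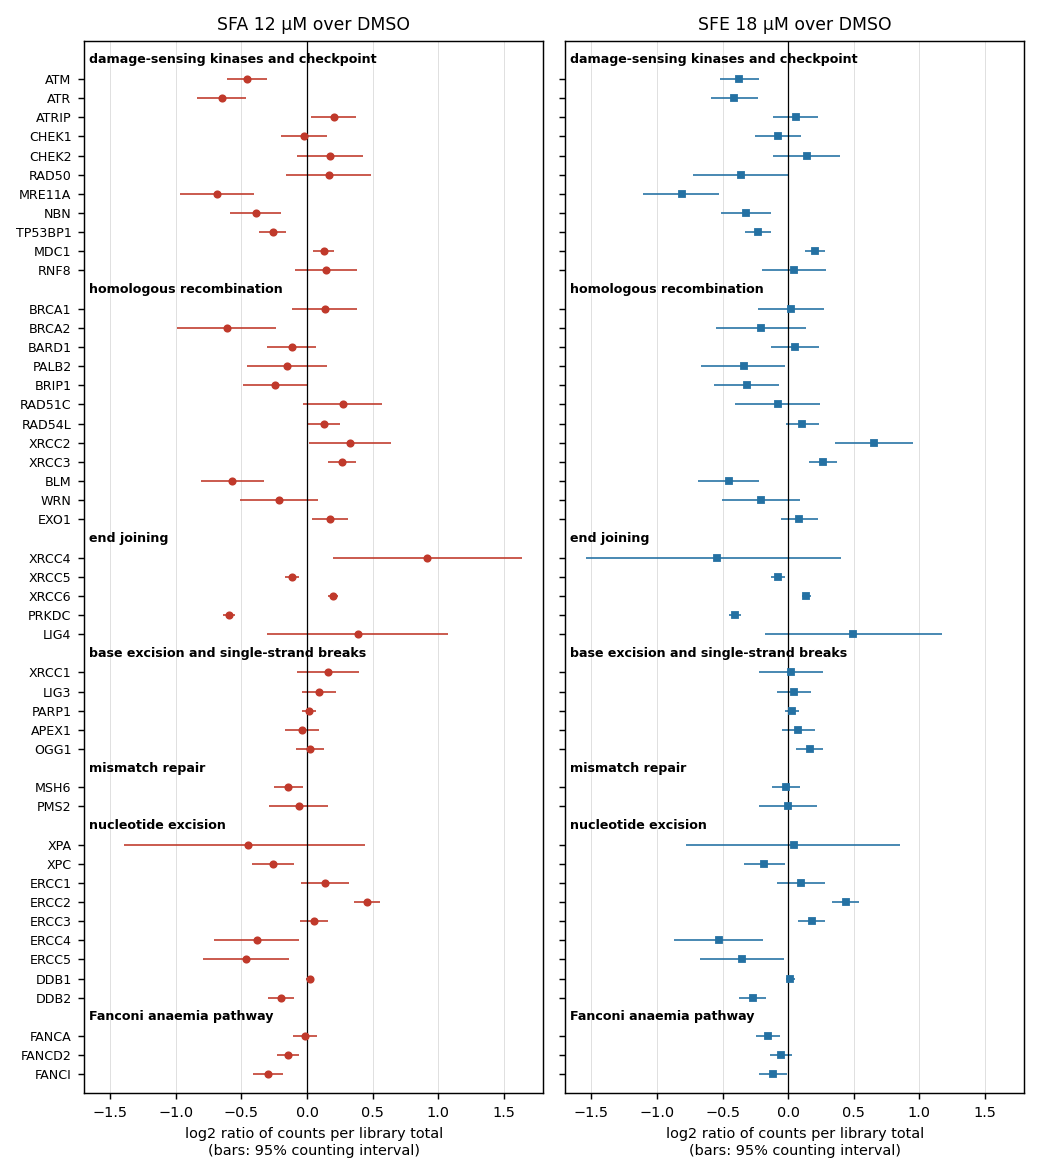
Log2 ratio of counts per library total for each of the 47 genes, grouped by role (left SFA over DMSO, right SFE over DMSO). Each point is the ratio of a compound library to the shared DMSO library, and bars give the 95% counting interval. PRKDC, ATR, MRE11A and BLM lie left of 0 in both panels, and ERCC2, XRCC3 and XRCC6 lie right of it.

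Promoters of 6 genes at the edges of this range are shown so that the start regions of genes among the lower ones (ATR, MRE11A, BLM) can be read beside those of genes among the higher ones (ERCC2, XRCC2, XRCC3). Each is the 300 bases of the RefSeq promoter table for GRCh38.p14, 250 before to 50 after the annotated start, 5′ to 3′ on the gene's own strand. Capitals mark matches on either strand to motifs of factors that often bind such promoters, namely TTCCCGC and TTGGCGC for E2F, CCAAT for NF-Y, TTTGAA and TTCGAA for the cell cycle homology region and GGGCGG for SP1.
ATR, chr3:142578684-142578983, minus strand: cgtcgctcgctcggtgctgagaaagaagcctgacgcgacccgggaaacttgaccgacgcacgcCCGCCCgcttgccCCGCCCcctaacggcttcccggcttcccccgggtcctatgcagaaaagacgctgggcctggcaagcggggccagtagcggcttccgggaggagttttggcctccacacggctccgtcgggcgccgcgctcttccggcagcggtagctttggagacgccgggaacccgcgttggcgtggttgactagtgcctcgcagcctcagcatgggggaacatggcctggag
MRE11A, chr11:94493795-94494094, minus strand: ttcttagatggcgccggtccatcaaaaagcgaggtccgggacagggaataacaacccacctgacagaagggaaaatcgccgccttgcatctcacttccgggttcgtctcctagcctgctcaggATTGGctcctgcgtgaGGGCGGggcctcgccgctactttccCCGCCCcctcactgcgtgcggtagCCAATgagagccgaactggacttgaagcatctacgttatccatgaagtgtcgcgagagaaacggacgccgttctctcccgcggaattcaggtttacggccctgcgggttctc
BLM, chr15:90717096-90717395, plus strand: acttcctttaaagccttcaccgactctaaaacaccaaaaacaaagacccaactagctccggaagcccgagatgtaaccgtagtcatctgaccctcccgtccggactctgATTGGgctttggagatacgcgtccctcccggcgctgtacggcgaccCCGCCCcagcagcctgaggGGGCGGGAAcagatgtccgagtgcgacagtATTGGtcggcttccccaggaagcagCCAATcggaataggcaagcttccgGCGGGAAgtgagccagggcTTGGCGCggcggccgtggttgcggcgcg
ERCC2, chr19:45370524-45370823, minus strand: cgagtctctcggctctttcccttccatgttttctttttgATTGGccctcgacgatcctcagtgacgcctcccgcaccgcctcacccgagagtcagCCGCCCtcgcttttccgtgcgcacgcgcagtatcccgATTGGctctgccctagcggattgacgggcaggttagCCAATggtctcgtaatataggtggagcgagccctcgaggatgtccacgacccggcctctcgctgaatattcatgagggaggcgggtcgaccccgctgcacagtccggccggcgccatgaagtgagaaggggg
XRCC2, chr7:152676092-152676391, minus strand: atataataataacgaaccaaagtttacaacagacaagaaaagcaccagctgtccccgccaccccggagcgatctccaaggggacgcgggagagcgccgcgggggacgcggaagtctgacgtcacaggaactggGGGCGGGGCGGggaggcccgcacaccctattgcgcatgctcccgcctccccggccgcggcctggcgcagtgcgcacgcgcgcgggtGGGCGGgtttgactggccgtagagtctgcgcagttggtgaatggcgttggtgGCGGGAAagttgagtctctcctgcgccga
XRCC3, chr14:103715402-103715701, minus strand: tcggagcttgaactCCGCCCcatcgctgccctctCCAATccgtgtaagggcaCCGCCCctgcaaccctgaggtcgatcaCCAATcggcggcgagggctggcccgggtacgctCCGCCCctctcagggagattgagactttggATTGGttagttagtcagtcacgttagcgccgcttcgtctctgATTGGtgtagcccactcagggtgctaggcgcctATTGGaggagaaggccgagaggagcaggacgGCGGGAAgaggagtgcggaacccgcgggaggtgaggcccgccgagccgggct

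The ATR window held 2 matches to the SP1 motif and none to the others, whereas the BLM window held 3 E2F, 3 CCAAT and 2 SP1 matches. MRE11A had 2 CCAAT and 2 SP1 matches. ERCC2 had 3 CCAAT matches and 1 SP1 match, and XRCC3 had 5 CCAAT, 3 SP1 and 1 E2F match. XRCC2 had 3 SP1 matches and 1 E2F match. Promoters were found for 42 of the 47 genes. PRKDC, NBN, XRCC5, FANCI and WRN had none, so PRKDC, the lowest member with SFA on the log2(FPKM + 1) scale, could not be shown. Either E2F motif was present in 15 of the 42 (35.7%), in 15.7% of 8056 promoters of the genes tested and in 9.33% of all 27305 promoters in the table. CCAAT was present in 23 of the 42 (54.8%) and in 37.7% of the 8056, and GGGCGG in 32 (76.2%) and 72.5%. TTTGAA was present in 4 of the 42 (9.52%) and in 9.16% of the 8056, and TTCGAA in none of the 42 and in 1.73% of the 8056. Of 134 matches in the 42 promoters, 4 overlapped a match to another motif. These matches describe letters in the windows and say nothing of binding.

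The large damage-sensing kinases were lower with both compounds. ATM (chromosome 11, 108222484 to 108369102, hg38), which answers breaks through the whole helix, had 546 counts with SFA, 580 with SFE and 1032 with DMSO. It was 1.37-fold lower with SFA (95% counting interval 1.24 to 1.53) and 1.29-fold lower with SFE (1.17 to 1.43). ATR (chromosome 3, 142449235 to 142578826), which answers stalled replication forks, had 337, 398 and 728 counts with SFA, SFE and DMSO, or 1.59, 1.88 and 2.50 FPKM. It was 1.57-fold lower with SFA (1.38 to 1.79) and 1.33-fold lower with SFE (1.18 to 1.51). ATM shares bases with NPAT on the other strand, which had 181, 197 and 321 counts in the same order. The genes overlapping ATR had 39 counts or fewer in sum in each library. ATRIP, the partner that carries ATR to single-stranded DNA, did not share the direction of ATR: it stood at 10.1 FPKM with SFA, 9.10 with SFE and 8.75 with DMSO, a ratio of 1.15 with SFA (1.02 to 1.29) and 1.04 with SFE (0.921 to 1.17). A second identifier named ATRIP held 13, 19 and 39 counts with SFA, SFE and DMSO and was not used.

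The kinases downstream of them stood close to DMSO. CHEK1, the checkpoint kinase activated by ATR, stood at 2.81 FPKM with SFA, 2.70 with SFE and 2.85 with DMSO, and its ratio was 0.985 with SFA (0.873 to 1.11) and 0.947 with SFE (0.838 to 1.07). CHEK2, activated by ATM, stood at 2.44, 2.38 and 2.16 FPKM with SFA, SFE and DMSO, with ratios of 1.13 (0.949 to 1.35) and 1.1 (0.924 to 1.31). All 4 of these intervals hold 1, which does not show that the levels were equal. CHEK1 had 473, 455 and 661 counts with SFA, SFE and DMSO. It shares bases with STT3A on the same strand, which had 4032, 4190 and 5397. CHEK2 shares bases with HSCB on the other strand, which had 208, 168 and 219 counts.

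In the break-sensing complex, MRE11A and NBN were lower, and both intervals of RAD50 held 1 with the deposited scaling. MRE11A (chromosome 11, 94415578 to 94493908), the nuclease subunit, had 155 counts with SFA, 142 with SFE and 343 with DMSO. It was 1.61-fold lower with SFA (1.33 to 1.96) and 1.76-fold lower with SFE (1.44 to 2.15), the ratio farthest from 1 with SFE among the 47 genes. ANKRD49, on the other strand, had 48, 56 and 61 counts. NBN, the subunit that binds ATM, stood at 2.49 FPKM with SFA, 2.61 with SFE and 3.26 with DMSO, 1.31-fold lower with SFA (1.15 to 1.5) and 1.25-fold lower with SFE (1.1 to 1.43). RAD50, the coiled-coil ATPase, stood below 1 FPKM in every library, with 145, 101 and 178 counts and a ratio of 1.12 with SFA (0.894 to 1.40). It was 1.28-fold lower with SFE, with an interval that barely holds 1 (0.998 to 1.65). Median-ratio scaling shifted SFE minus DMSO by −0.04 on the log2 scale, so whether that interval holds 1 rests on the scaling.

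Of the chromatin adaptors, TP53BP1 was lower and MDC1 higher. TP53BP1, which steers breaks towards end joining, stood at 5.05 FPKM with SFA, 5.17 with SFE and 6.05 with DMSO, 1.2-fold lower with SFA (1.12 to 1.29) and 1.17-fold lower with SFE (1.09 to 1.26). MDC1, the scaffold that reads phosphorylated H2AX, stood at 14, 14.8 and 12.9 FPKM with SFA, SFE and DMSO, a ratio of 1.09 with SFA (1.03 to 1.15) and 1.15 with SFE (1.09 to 1.21). RNF8, a ubiquitin ligase recruited by MDC1, stood at 1.77, 1.65 and 1.60 FPKM, and both its intervals hold 1. Over the 11 genes of sensing and checkpoint signalling the median log2 difference was −0.02 with SFA and −0.15 with SFE, with 6 and 7 genes lower. Of the 11680 genes, 48.6% were lower with SFA and 44.8% with SFE.

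Among the 12 genes of homologous recombination the directions were mixed, with 6 lower and 6 higher with each compound and a median of −0.02 with SFA and −0.01 with SFE. The shares of the 11680 genes that were lower were 48.6% with SFA and 44.8% with SFE. BLM, the RecQ helicase that dissolves recombination intermediates (chromosome 15, 90717327 to 90816165, overlapping no listed gene), had 217 counts with SFA, 235 with SFE and 443 with DMSO. It was 1.48-fold lower with SFA (1.26 to 1.75) and 1.37-fold lower with SFE (1.17 to 1.61). WRN, another RecQ helicase, stood at 1.68 FPKM with SFA, 1.70 with SFE and 1.95 with DMSO, with ratios of 0.862 (0.701 to 1.06) and 0.867 (0.706 to 1.06).

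XRCC2 and XRCC3, which act in homologous recombination, stood higher. XRCC2 (chromosome 7, 152644779 to 152676165, overlapping no listed gene) had 166 counts with SFA, 208 with SFE and 182 with DMSO, of which the DMSO count came from the largest library. Its ratio was 1.25 with SFA (1.01 to 1.56) and 1.57 with SFE (1.28 to 1.93). XRCC3 stood at 7.52 FPKM with SFA, 7.52 with SFE and 6.25 with DMSO, 1.2-fold higher with each (1.12 to 1.29 for both). It overlaps KLC1 on the other strand, with 877, 929 and 1160 counts. RAD51C, which acts in the same pathway, had 177, 139 and 202 counts, and its intervals hold 1 with both compounds. It reached 1 FPKM with SFA only, at 1.14.

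BRCA1 and its partner BARD1, the ubiquitin ligase pair at breaks, stood near DMSO. BRCA1 had 247 counts with SFA, 229 with SFE and 310 with DMSO, ratios of 1.1 (0.924 to 1.30) and 1.02 (0.853 to 1.21). BARD1 stood at 2.68, 3.01 and 2.91 FPKM, ratios of 0.922 (0.809 to 1.05) and 1.04 (0.914 to 1.17). BRCA2, a mediator of homologous recombination, had 89 counts with SFA, 118 with SFE and 187 with DMSO, 1.53-fold lower with SFA (1.18 to 1.99) and 1.15-fold lower with SFE (0.910 to 1.46). PALB2, which joins BRCA2 to BRCA1, stood at 1.66, 1.46 and 1.84 FPKM, with the SFE interval below 1 (ratio 0.790, 0.633 to 0.984). BRIP1, a helicase that binds BRCA1, stood at 1.91, 1.82 and 2.27 FPKM, a ratio of 0.845 with SFA (0.713 to 0.99993, barely below 1) and 0.804 with SFE (0.676 to 0.953). RAD54L, a motor of strand exchange, and EXO1, an end-resecting nuclease, stood at 12.4 and 8.51 FPKM with SFA, at 12.2 and 8.01 FPKM with SFE and at 11.3 and 7.55 FPKM with DMSO. Their ratios were 1.09 (1.0003 to 1.19, barely above 1) and 1.13 (1.02 to 1.24) with SFA. With SFE they were 1.08 and 1.06, both with an interval that holds 1.

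In end joining, the catalytic subunit of DNA-PK was lower while the Ku subunits lay nearer DMSO. PRKDC, that subunit (chromosome 8, 47773108 to 47960183, overlapping no listed gene), had 5336 counts with SFA, 6098 with SFE and 11092 with DMSO, or 20.8, 23.8 and 31.4 FPKM. It was 1.51-fold lower with SFA (1.46 to 1.56) and 1.32-fold lower with SFE (1.28 to 1.36). XRCC6, the smaller Ku subunit, stood at 162 FPKM with SFA, 156 with SFE and 142 with DMSO, a ratio of 1.15 with SFA (1.12 to 1.18) and 1.1 with SFE (1.07 to 1.13). XRCC5, the larger, stood at 41.5, 42.6 and 44.9 FPKM, a ratio of 0.925 (0.892 to 0.959) and 0.947 (0.914 to 0.982). The ligase pair of this pathway was at the bottom of the range. XRCC4, the scaffold, had 41 counts with SFA, 15 with SFE and 30 with DMSO, a ratio of 1.88 with SFA (1.15 to 3.12) and 0.688 with SFE (0.344 to 1.32), and it overlaps TMEM167A, with 419, 500 and 661 counts. LIG4, the ligase, had 37, 40 and 39 counts, and both its intervals hold 1.

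In base excision and single-strand break repair, no interval excluded 1 with SFA, and with SFE that of OGG1 alone did. Over the 11680 genes the interval lay below 1 for 26.8% and above it for 27.6% with SFA. The same shares with SFE were 22.8% and 28.9%. PARP1, the poly(ADP-ribose) polymerase that marks nicks (chromosome 1, 226360691 to 226408079), stood at 36.8 FPKM with SFA, 37.1 with SFE and 36.4 with DMSO, and its ratios were 1.01 (0.973 to 1.05) and 1.02 (0.983 to 1.06). XRCC1, the scaffold, and LIG3, its ligase, stood at 3.78 and 3.57 FPKM with SFA, 3.45 and 3.46 FPKM with SFE and 3.39 and 3.35 FPKM with DMSO, with intervals that hold 1 throughout. APEX1, the abasic site endonuclease, had 832, 903 and 1177 counts with SFA, SFE and DMSO, ratios of 0.973 (0.889 to 1.06) and 1.06 (0.967 to 1.15). OGG1, the glycosylase for oxidised guanine, stood at 5.76 FPKM with SFA, 6.35 with SFE and 5.67 with DMSO, a ratio of 1.02 with SFA (0.944 to 1.09) and 1.12 with SFE (1.04 to 1.2). The 5 genes had a median log2 difference of 0.02 with SFA and 0.036 with SFE, against 0.01 and 0.03 over the 11680 genes. That SFE median is smaller in size than the −0.040 by which median-ratio scaling shifted SFE minus DMSO. In mismatch repair, MSH6, a mismatch sensor, stood at 3.86, 4.22 and 4.26 FPKM, a ratio of 0.905 with SFA (0.837 to 0.979) and 0.989 with SFE (0.916 to 1.07). PMS2, the endonuclease subunit that follows, stood at 3.59, 3.76 and 3.76 FPKM.

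Nucleotide excision repair held ERCC2, the member with the highest difference on the log2(FPKM + 1) scale with each compound. By ratio of counts XRCC4 with SFA, and XRCC2 and LIG4 with SFE, stood further above 1. ERCC2, a helicase of the transcription and repair factor TFIIH (chromosome 19, 45349837 to 45370918), stood at 13.4 FPKM with SFA, 13.2 with SFE and 9.74 with DMSO. Its counts were 1614, 1593 and 1617, a ratio of 1.37 with SFA (1.28 to 1.47) and 1.36 with SFE (1.26 to 1.45). KLC3, which overlaps it on the other strand, had 9, 6 and 14 counts. ERCC3, the second TFIIH helicase, stood at 8.59, 9.35 and 8.26 FPKM, a ratio of 1.04 with SFA (0.964 to 1.12) and 1.13 with SFE (1.05 to 1.22). The nucleases that cut out the damaged strand stood lower: ERCC4 had 125 counts with SFA, 113 with SFE and 224 with DMSO (1.30-fold lower, 1.04 to 1.63, and 1.44-fold lower, 1.14 to 1.82), and ERCC5 had 120, 130 and 228 (1.38-fold lower, 1.1 to 1.74, and 1.28-fold lower, 1.02 to 1.59). ERCC4 and ERCC5 reached 1 FPKM only with DMSO. ERCC1, the partner of ERCC4, stood at 3.04, 2.95 and 2.76 FPKM with intervals that hold 1.

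The damage recognition genes XPC and DDB2 were lower with both compounds. XPC stood at 6.04 FPKM with SFA, 6.36 with SFE and 7.22 with DMSO, 1.19-fold lower with SFA (1.07 to 1.34) and 1.13-fold lower with SFE (1.02 to 1.27). DDB2, the ultraviolet damage sensor, stood at 8.29, 7.88 and 9.52 FPKM, 1.15-fold lower with SFA (1.07 to 1.23) and 1.21-fold lower with SFE (1.12 to 1.30). DDB1, its partner and a ubiquitin ligase adaptor, had 13661, 13612 and 18506 counts, with ratios of 1.02 (0.993 to 1.04) and 1.01 (0.989 to 1.03), and the SFE difference was below 0 under either other scaling. XPA, which verifies the lesion, had 17, 24 and 32 counts, and both its intervals hold 1. In the Fanconi anaemia pathway, which unhooks crosslinks, all 3 genes had a log2 difference below 0 with both compounds. So did 48.6% of the 11680 genes with SFA and 44.8% with SFE. FANCI stood at 6.36 FPKM with SFA, 7.21 with SFE and 7.82 with DMSO (1.23-fold lower, 1.14 to 1.33, and 1.08-fold lower, 1.01 to 1.17), its partner FANCD2 at 12.7, 13.6 and 14.1 FPKM (1.1-fold lower, 1.04 to 1.17, and 1.04-fold lower, 0.980 to 1.1), and FANCA, of the core ligase complex, at 6.76, 6.15 and 6.85 FPKM (1.01-fold lower, 0.951 to 1.08, and 1.11-fold lower, 1.04 to 1.19).

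**Figure D3:**
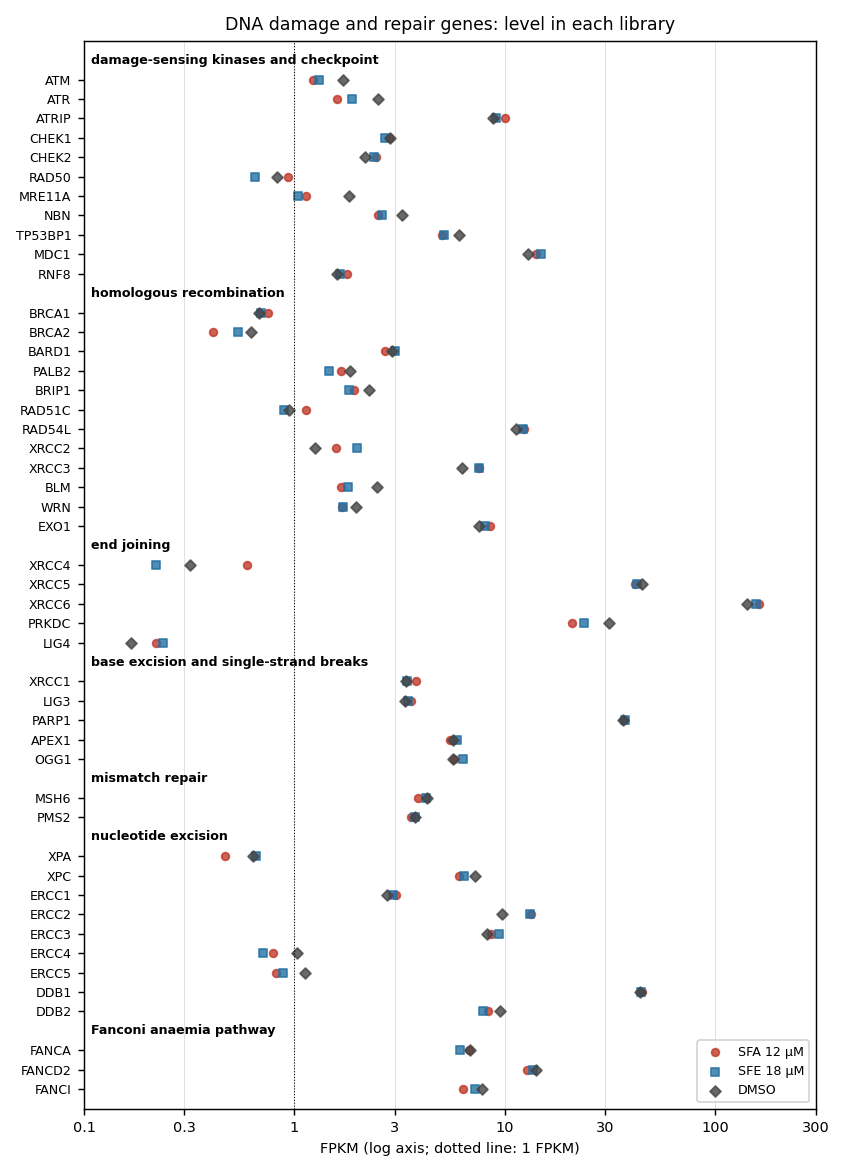
Deposited FPKM of each of the 47 genes on a log axis in the SFA (circles), SFE (squares) and DMSO (diamonds) libraries, grouped by role, with a dotted line at 1 FPKM. XRCC6 lies highest, at 162, 156 and 142 FPKM, and for most genes the 3 symbols nearly coincide.

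Comparing levels between genes needs care, because the length behind the deposited FPKM was not that of the gene's merged exons. The implied length was 1.51 times the GENCODE 29 exon union at the median of the 47 genes (1.54 over 11727 genes with over 50 counts with DMSO). For APEX1 it was 5.90 times the exon union and longer than the gene itself, and for ATRIP 0.703 times. On the same scale recomputed with exon union lengths, XRCC6 stood first, at 250.1 with SFA, 240.4 with SFE and 218.2 with DMSO. XRCC5 followed at 66.1, 67.7 and 71.5 on that scale, beside DDB1 at 71.8, 71.5 and 70.7. XRCC5 and DDB1 changed places between libraries. PARP1 stood at 49.96, 50.5 and 49.5, APEX1 at 32.3, 35.1 and 33.3, and PRKDC at 25.4, 28.99 and 38.3, below APEX1 with SFA and SFE and above it with DMSO. LIG4, XRCC4, BRCA2, XPA and RAD50 took the lowest 5 places with DMSO, between 0.474 and 0.971. By deposited FPKM, 41 of the 47 genes reached 1 in at least 1 library, and BRCA1, BRCA2, RAD50, XRCC4, LIG4 and XPA did not. On the exon-union scale 44 did, BRCA1 and RAD50 among them.

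Of the protein pairs looked at, some were set apart by these small differences and others little. The FPKM of ATR over that of ATRIP was 0.158 with SFA, 0.207 with SFE and 0.286 with DMSO, and ERCC4 over ERCC1 was 0.259, 0.241 and 0.372. XRCC5 over XRCC6 was 0.256, 0.273 and 0.317. XRCC1 over LIG3 stayed at 1.06, 0.997 and 1.01. The pairs follow from the single genes above and add no separate evidence.

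Genes that span more of the genome tended to be the lower ones. Of the 20 genes whose span from start to end exceeds 57.0 kb, the upper quartile over the genes tested, 16 had a difference below 0 with SFA, and the other 4 were BRCA1, RAD50, XRCC4 and ERCC1. With SFE 17 of the 20 did, and the other 3 were BRCA1, BARD1 and ERCC1. Among the 27 shorter genes 9 did with SFA and 7 with SFE. Over all genes tested, 62.0% of 2920 genes above that span and 44.1% of 8760 genes below it had a difference below 0 with SFA, and 54.8% and 41.4% with SFE. Across the 47 genes Spearman's rho between span and log2 difference was −0.41 with SFA and −0.56 with SFE, and across the 11680 genes −0.17 with both. These values describe genes that share the same 3 libraries and are not independent replicates. XRCC4 has the longest span, 276 kb, and among the next are PRKDC at 187 kb, BRIP1 at 182 kb, ATM at 147 kb and ATR at 130 kb.

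**Figure D4:**
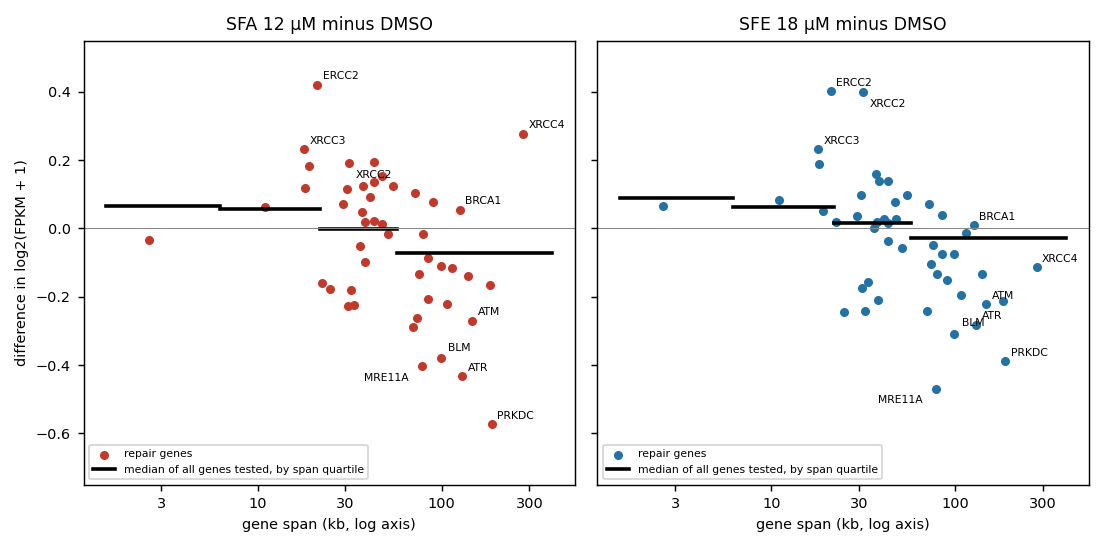
Gene span in kilobases (x, log axis) against the difference in log2(FPKM + 1) from DMSO (y; left SFA, right SFE). Points are the 47 repair genes, and black bars give the median of all genes tested in each span quartile. Members above 57.0 kb lie mostly below 0, 16 of 20 with SFA and 17 of 20 with SFE.

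Between the compound libraries themselves the 47 genes differed little. On the log2(FPKM + 1) scale no member was 2-fold or 1.5-fold apart between SFE and SFA, where 0.676% of the genes tested were higher and 0.616% lower by 2-fold with SFE, and 2.88% higher and 2.17% lower by 1.5-fold. At 1.25-fold XRCC4 alone was lower and none was higher, where the shares were 5.63% and 7.72%. The difference was below 0 for 22 of the 47 genes and for 44.3% of the genes tested. The interval of the SFE over SFA ratio lay above 1 for 8 and below 1 for 5 of the 47 genes, where the shares over the genes tested were 19.7% and 13.2%. That count rests on the scaling: under median-ratio or trimmed mean scaling it was 2 above and 6 below, where the shares over the genes tested were 15.5% and 17.3% under median-ratio and 15.8% and 16.97% under trimmed mean scaling. PRKDC had a ratio of 1.14 (1.1 to 1.19), and XRCC4, at 15 against 41 counts, one of 0.366 (0.188 to 0.675). The doses differ, so these values set libraries side by side and not compounds at matched exposure.

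A list of 103 other repair genes, chosen for this account from general knowledge, stood in much the same place. Over the 83 that reached 1 FPKM the median difference was −0.02 with SFA and −0.01 with SFE. With SFA 40 were higher and 43 lower (48.6% of the 11680 genes were lower), and with SFE 39 and 44 (44.8%). Only NEIL3, a glycosylase for oxidised bases, passed 2-fold, and only with SFA: it stood at 11.7 FPKM with SFA, 8.13 with SFE and 4.74 with DMSO, 2.48-fold higher with SFA (2.16 to 2.85) and 1.72-fold higher with SFE (1.48 to 1.99). Of the genes named from this list, all but TDP2 and ALKBH2 overlap another listed gene. TDP2, which frees ends from trapped topoisomerase, stood at 8.13, 6.20 and 4.76 FPKM, and ALKBH2, a DNA dealkylase, at 4.47, 4.22 and 2.90 FPKM. With SFE the next highest were RMI2, of the BLM complex, at 2.0, 2.96 and 1.51 FPKM, and POLL, a polymerase of end joining, at 3.12, 3.74 and 2.35 FPKM. Lowest were HLTF, a fork-remodelling enzyme, at 1.42, 1.38 and 2.32 FPKM, and with SFA POLQ, the polymerase of microhomology-mediated joining, at 1.07, 1.43 and 1.79 FPKM and CLSPN, the adaptor between ATR and CHEK1, at 2.25, 3.00 and 3.25 FPKM. With SFE FAN1, a crosslink nuclease, at 2.71, 2.18 and 3.44 FPKM and RECQL, a RecQ helicase, at 2.95, 2.61 and 3.83 FPKM were among the lowest. The 27 replication genes made in S phase, given because many recombination genes follow the same phase, had a median of −0.02 with SFA and 0.02 with SFE, with 16 and 11 genes lower. Over the 11680 genes 48.6% and 44.8% were lower. That SFE median is smaller in size than the −0.04 by which median-ratio scaling shifted SFE minus DMSO.

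As to the cells, the epithelial keratins KRT8 and KRT18 stood at 223 and 292 FPKM with SFA, 232 and 294 FPKM with SFE and 416 and 534 FPKM with DMSO, while EPCAM and KRT19 were below 1 FPKM in every library. The 7 epithelial markers summed to 522, 534 and 961 FPKM, and 6 of 7 were lower with each compound. The 7 fibroblast markers summed to 16.8, 19.9 and 30.9 FPKM with SFA, SFE and DMSO. Of these 7, 6 were lower with each compound, among them COL1A2, which had 0 counts with SFA, 0 with SFE and 1 with DMSO. THY1 was higher, with 942 counts with SFA, 1053 with SFE and 858 with DMSO. Beside both marker lists, 48.6% of the 11680 genes were lower with SFA and 44.8% with SFE. No leukocyte, endothelial or erythroid marker reached 1 FPKM. The part of these shifts in the repair genes' values was not tested.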

How the data were processed

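Total RNA of 3 AGS samples was sequenced, 1 library each for SFA, SFE and DMSO. The submitters' processing notes name HISAT2 (2.0.4), StringTie (1.2.3) and hg38, without role or order. How reads were counted, whether strand was used and which annotation release applied are not given in the sources used here. Whole-number counts and FPKM were deposited by the authors for 50868 identifiers. In the deposited values FPKM is the count scaled by a length fixed for each gene and by the total, to within 0.0831%. Where a gene name had several identifiers, that of highest mean FPKM stood for it. Counts over all genes use those reaching 1 FPKM in any library. Differences are log2(FPKM + 1) of the compound minus DMSO, which understates changes of low genes. Without replicates, groups were not tested. Intervals came from scipy 1.17.1, and the ratio step was tested on simulated data. edgeR 4.0.16 gave trimmed mean (TMM) factors for an alternative scaling. Exon lengths came from GENCODE 29, in which 45 of the 47 genes have the same position, and promoters from RefSeq. Members were taken by gene name, but members, lists and limits were chosen with earlier results of these data known. The rule gave full values for the 3 highest and 3 lowest members with each compound, and named the 3 highest and 3 lowest of the other repair list. Values of further members, of overlapping genes and of related kinases were added after they were seen. No member had a count of 0.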

Additional observations from a re-analysis of the deposited data

How the results depend on the processing

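The median difference of the repair genes stayed between −0.04 and 0.02 with SFA and between −0.05 and 0.04 with SFE over all settings tried, so its sign is not fixed: it was above 0 at 5 FPKM or more (20 genes) and without overlapping genes (11 genes), and below 0 with no filter, a pseudocount of 0.1, summed identifiers, median-ratio or TMM scaling and lengths from GENCODE 29. The last was chosen after seeing the data. No setting gave a 2-fold member. With a pseudocount of 0.1, 3 of the 41 members at 1 FPKM or more passed 1.5-fold with SFA (ATR, MRE11A and PRKDC, lower) and 2 with SFE (MRE11A, lower, and XRCC2, higher), where 8.52% and 6.39% of all genes were lower and 9.59% and 9.86% higher; the cause was not tested. Over all 47, XRCC4 also passed, higher with SFA. Median-ratio scaling shifted SFE minus DMSO by −0.04 on the log2 scale and SFA minus DMSO by −0.01. DDB1 with SFE had a difference of −0.02 under median-ratio and TMM scaling, against 0.02 as deposited. Other members changed sign too: 24 of the 47 were below 0 with SFE as deposited and 29 under either scaling. No paired analysis was possible because each group has 1 library, and none can be left out. Depth limits XPA, XRCC4 and LIG4 most, at 41 counts or fewer in each library.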

Other observations

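The kinases ATM, ATR and PRKDC belong to one family with MTOR, a growth regulator, SMG1, a kinase of RNA surveillance, and TRRAP, a catalytically inactive scaffold. These 3 relatives were looked up after the members' values were seen. MTOR spans 155973 bases and had 4134 counts with SFA, 4312 with SFE and 5742 with DMSO, a ratio of 0.991 with SFA (95% counting interval 0.952 to 1.03) and 1.03 with SFE (0.993 to 1.07). SMG1, at 121602 bases, was 1.28-fold lower with SFA (1.2 to 1.37) and 1.13-fold lower with SFE (1.06 to 1.2). TRRAP, at 135311 bases, was 1.16-fold lower with SFA (1.12 to 1.21) and 1.05-fold lower with SFE (1.01 to 1.08). The part of gene span in these values was not tested. All but PRKDC overlap another listed gene, so their values are uncertain.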
